A study of Mus musculus with 41 samples.

Results

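Translational efficiency (TE) after loss of Upf2 was measured as the change of ribosome protected fragments (RPFs, or footprints) of a gene that is not matched by the change of its RNA. Members were chosen as every library that enters this contrast: 3 footprint libraries labelled Upf2-/-, their 3 control footprint libraries, 3 RNA libraries labelled Upf2-/- and 3 control RNA libraries, which are 12 of the 41 samples. The cells were primary mouse embryonic fibroblasts (MEFs) of C57BL/6 embryos isolated at embryonic day 13. Mutant cells were Upf2 fl/fl with TgCAG-Cre ER, a tamoxifen-inducible Cre driven in all cell types, and control cells carried TgCAG-Cre ER alone. Both received 1 µM of 4-hydroxytamoxifen for 48 h, and all groups also shared the homozygous n-Tr20 mutation of the C57BL/6J strain. Cells were collected 48 h after reseeding at passage 1, with 2 pooled dishes of 1 embryo per footprint replicate and 1 dish of 1 embryo per RNA replicate. Footprints and RNA therefore came from different dishes, and a change in TE cannot be told apart from a difference between the cultures used for each assay.

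Upf2 encodes a core factor of nonsense-mediated decay (NMD), the pathway that degrades mRNAs on which a ribosome terminates at a premature stop codon, often upstream of an exon junction complex. NMD also limits many normal transcripts, among them stress response mRNAs with upstream open reading frames and splicing factor isoforms that carry a poison exon. Translation of ribosomal protein (RP) mRNAs is controlled separately, through a 5' terminal oligopyrimidine (TOP) motif that links their ribosome loading to mTORC1.

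Total counts were 5782990 to 11061625 in the 3 footprint libraries labelled Upf2-/-, 14274790 to 15602201 in their controls and 22713643 to 77329534 over the 6 RNA libraries. Summed fibroblast markers reached 43700 to 51700 CPM (counts scaled to library size) in footprints, and none of the 10 was under 1 CPM. Erythroid markers summed to 0 CPM in all footprint libraries, and 4 of 8 endothelial and 4 of 6 epithelial markers were under 1 CPM. The embryos differed in sex between groups: summed counts of 4 Y-linked genes exceeded 10 CPM in all 3 footprint libraries labelled Upf2-/-, 1 of 3 control footprint libraries, 2 of 3 RNA libraries labelled Upf2-/- and 1 of 3 control RNA libraries. Results of most lists are therefore also given among the 7 libraries with Y-linked counts, a comparison added after seeing the data. It keeps 1 control library in each assay, which is assumed to vary like the other groups, and it uses libraries of the full fit, so its calls are no independent support.

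Upf2 itself (chromosome 2, 5951469 to 6056703, + strand, mm10) went against the label. Its RPFs were 113, 113 and 118 CPM in the libraries labelled Upf2-/- and 54.7, 48.8 and 58.1 CPM in controls. Its RNA was 70.7, 49.4 and 35.4 CPM against 18.3, 24.6 and 19.3 CPM. Both measures were higher in every library labelled Upf2-/- than in any control library, with no overlap. The log2 changes were 1.09 for RPFs (adjusted p = 3.12e-06) and 1.33 for RNA (adjusted p = 0.000978, edgeR quasi-likelihood test with Benjamini-Hochberg adjustment, as for all adjusted p-values here), and the TE change was -0.25 ± 0.27 (standard error, adjusted p = 0.566). Counts over the whole gene do not isolate the deleted exons, so this level does not check the deletion. The labels were instead set beside annotated NMD transcripts, which took 2.45%, 2.48% and 2.28% of TPM (length-scaled RNA abundance) in the RNA libraries labelled Upf2-/- and 1.78%, 1.81% and 2.06% in control RNA, without overlap.

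TE was altered for 2392 of 13302 genes tested (18%), of which 1011 rose (7.6%) and 1381 fell (10.4%). The median TE change over all tested genes was -0.03 with quartiles of -0.37 and 0.30, and 403 genes rose and 443 fell by over 1 on the log2 scale. In the components, RPFs were altered for 43.4% of 12166 genes and RNA for 3202 (23.4%) of 13695 genes, or 1998 and 2014 without control RNA replicates 2 and 3. Replicates varied more in RNA than in RPFs, with a common biological coefficient of variation of 0.144 against 0.087. Genes not called in RNA are therefore not shown to be unchanged in RNA. Among the 12054 genes tested in all 3 fits, 980 had higher TE, and 670 of these (68.4%) had higher RPFs with no called RNA change. Genes with lower TE divided differently: of 1343, 621 (46.2%) had lower RPFs with no called RNA change, while 404 (30.1%) had higher RNA with no called RPF change and 147 had both higher. The scatter of RPF against RNA changes shows both arms. The number of altered genes depended on single libraries. It was 1537 without footprint replicate 1 labelled Upf2-/-, 1501 without its replicate 2, 1463 without control footprint replicate 2 and 1375 without control RNA replicate 3. Of the 2392 genes, 1136 were called in all 12 fits that left out 1 library, 435 higher and 701 lower. With only the 7 libraries that have Y-linked counts, and so 1 control library per assay, 376 genes were called (1.22% of 13505 genes higher and 1.56% lower), and 338 of the 2392 genes were called in the same direction.

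**Figure D1:**
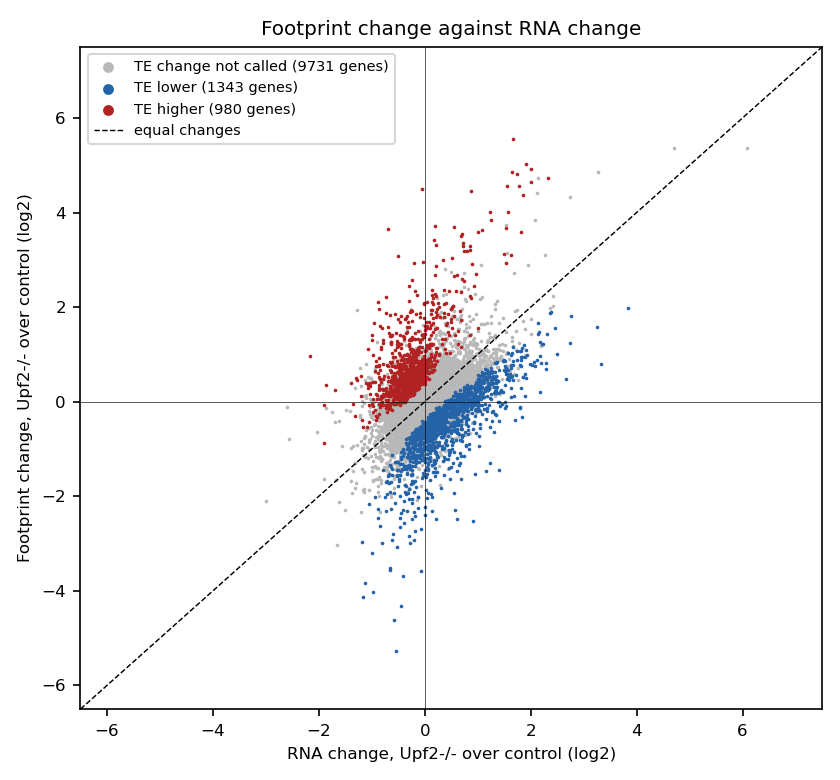
RPF change against RNA change (both log2, libraries labelled Upf2-/- over control) for the 12054 genes tested in all 3 fits, each point 1 gene, coloured by its TE call. Genes with higher TE (980, red) lie above the dashed line of equal changes, mostly at an RNA change near 0, and those with lower TE (1343, blue) extend both downward and to the right.

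RP genes and other TOP genes had median TE changes above that of all genes, with lower median RNA. Of 49 large subunit RP genes, 9 rose, 0 fell and 40 did not pass, with a median TE change of 0.27, or 0.15 without footprint replicate 2 or 3 labelled Upf2-/- or control footprint replicate 3. Of 34 small subunit RP genes, 10 rose and 0 fell, with a median of 0.31, or 0.19 without footprint replicate 2 labelled Upf2-/-. Of 29 other TOP genes, among them translation factors, 7 rose and 0 fell, with a median of 0.34. The share of these lists that rose stands beside 7.6% of all genes. RNA fell for 16 large subunit, 12 small subunit and 13 other TOP genes (8.57% of all genes), with medians of -0.26, -0.29 and -0.35. RPFs rose for 8 and fell for 11 of 45 large subunit genes, for 7 and 3 of 33 small subunit genes and for 10 and 5 of 29 other TOP genes (22.3% and 21.1% of all genes), with medians of -0.10, 0.01 and 0.03.

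Of the called genes of these lists with a promoter entry, 16 had a pyrimidine run near their start and 2 had none. The 5 with the lowest adjusted p among the 16 are shown, and were thus selected for having it. The TOP motif starts at the cap, and the runs begin at 8 (Rps12), 17 (Rpl10a), 24 (Rpl35a), -2 (Rps18) and -1 (Nap1l1) bases from the RefSeq start, which may differ from the start in these cells, so they are not shown to be the motif. Capitals mark the longest run of at least 8 consecutive C or T bases between 20 bases before and 50 bases after the RefSeq start, 5' to 3' on the gene's strand, from RefSeq on GRCm38.p6.
Rps12 (chr10:23787180-23787209, - strand): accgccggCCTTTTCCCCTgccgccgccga
Rpl10a (chr17:28328574-28328603, + strand): gcgctctgCCTTCTTTCCggtttccgcggc
Rpl35a (chr16:33056469-33056498, + strand): ggggcttgCCTTCCTCTTTCCgccatcttg
Rps18 (chr17:33955646-33955675, - strand): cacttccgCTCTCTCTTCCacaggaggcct
Nap1l1 (chr10:111473218-111473247, + strand): ctctcgggTCTTTTTTagcgccatctgctc
Such a run was present on the sense strand in 60 of 82 RP and other TOP genes with a promoter entry (73.2%), in 27.2% of 10340 other tested genes and in 25.4% of all 32851 promoters. On the antisense strand it was present in 13.4%, 31.0% and 28.7%. Within the RP and other TOP genes the median TE change was 0.26 with a run and 0.27 without, and in other genes -0.02 and -0.05.

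Rps12, a small subunit protein, had the largest RP increase among called genes. Its RPFs were 19.4, 18.6 and 21 CPM in the libraries labelled Upf2-/- and 5.21, 5.99 and 6.83 CPM in controls. Its RNA was 899, 764 and 723 CPM against 1030, 812 and 1000 CPM. RPFs did not overlap between groups and RNA did, and TE rose by 1.95 ± 0.20 (adjusted p = 6.12e-05). Rpl35a rose by 1.66 ± 0.18, Rpl7 by 1.16 ± 0.21, Rps18 by 1.00 ± 0.15 and Rpl3 by 0.93 ± 0.17, all called in each of the 12 fits that left out 1 library. Rpl10a rose by 1.66, and by 3.22 where only protein_coding transcripts were counted as RNA. Outside the ribosome, Pabpc1, which binds the poly(A) tail, rose by 0.78 ± 0.13, the nucleosome assembly gene Nap1l1 by 0.85 ± 0.16, the initiation factor subunit gene Eif3a by 0.83 ± 0.20 and Hnrnpa1 by 0.96 ± 0.23. RP genes have near-identical pseudogene copies, so their footprint counts, which were low beside their RNA, are uncertain. Of the 49 large subunit genes, the 38 with a mean of at least 5 CPM in each assay had a median of 0.08. In the libraries with Y-linked counts, 7 large subunit genes rose and 1 fell (1.22% and 1.56% of all genes there), 8 small subunit genes rose and 2 other TOP genes rose, with medians of 0.43, 0.41 and 0.37.

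Initiation factors, mitochondrial translation genes and the mTORC1 pathway are read against 7.6% of all genes higher and 10.4% lower. Of 41 initiation factors 5 rose and 0 fell (median 0.05), with Eif3c at 0.67 ± 0.14 and Eif5b, which joins the subunits, at 0.76 ± 0.21. Of 79 mitochondrial RP genes 1 rose and 3 fell (median -0.03), and of 75 nuclear OXPHOS subunits 3 rose and 2 fell (median -0.05). Of 13 mitochondrially encoded genes 4 rose and 0 fell (median 0.11), with mt-Atp6 at 1.48 ± 0.23. Of these 4, 1 was called in every fit without 1 library. The median of this list turned sign, to -0.03 without footprint replicate 2 labelled Upf2-/- and -0.02 without control footprint replicate 1. It was -0.19 in the libraries with Y-linked counts. Of 35 genes of the mTORC1 pathway 0 rose and 8 fell (median -0.09), including Akt1 at -0.64 ± 0.14, the autophagy kinase gene Ulk1 at -0.62 ± 0.16 and Nprl2, a subunit of the amino acid sensing complex GATOR1, at -0.72 ± 0.17. Of these 8, 3 were called in every fit without 1 library. In the libraries with Y-linked counts 0 initiation factors and 0 mTORC1 pathway genes were called (1.22% of all genes higher and 1.56% lower).

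Many known NMD targets passed as higher in RNA and in RPFs, and 8 of 18 passed as lower in TE (10.4% of all genes). Of the others 1 rose and 9 did not pass, and the median TE change of the list was -0.32. Their RPFs rose for 13 and fell for 2 (22.3% and 21.1% of all genes), with a median of 0.76. Their RNA rose for 11 and fell for 1 (14.8% of all genes rose), with a median of 0.84. The list was assembled from genes known to be NMD targets, with earlier results of these data in view, so its direction in RNA is not independent evidence. TE subtracts the RNA change, so choosing genes whose RNA rises also favours lower TE. The TE calls of this list are therefore not independent evidence either.

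Ddit3 (chromosome 10, 127290774 to 127296288, + strand), which encodes the stress transcription factor CHOP and has an upstream open reading frame, had the lowest TE of the list. Its RPFs were 20.8, 22.2 and 24.1 CPM in the libraries labelled Upf2-/- and 13.2, 12.7 and 12.5 CPM in controls. Its RNA was 336, 240 and 325 CPM against 30.8, 26.8 and 32.9 CPM. Neither measure overlapped between groups, and RNA rose far more than RPFs. The TE change was -2.52 ± 0.19 (adjusted p = 7.05e-06), with RPFs up by 0.80 and RNA up by 3.32.

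The 3 Gadd45 genes, growth arrest genes induced by DNA damage, were also called. Gadd45g had RPFs of 562, 732 and 856 CPM against 171, 210 and 166 CPM and RNA of 1780, 1460 and 2000 CPM against 140, 117 and 111 CPM. No library overlapped in either assay, and TE fell by 1.86 ± 0.22 on the log2 scale (adjusted p = 0.00018). Gadd45b changed by -0.90 ± 0.19 and Gadd45a by -0.62 ± 0.19, the latter called in 3 of 12 fits without 1 library. Ppp1r15a, which encodes the phosphatase subunit that reverses eIF2α phosphorylation, had an RNA change of 1.38, an RPF change near 0 and a TE change of -1.39 ± 0.22. Atf3 fell by 0.97 ± 0.23 in TE while its RPFs rose by 0.94. Atf4, the central transcription factor of the integrated stress response, rose by 1.49 in RPFs and 1.72 in RNA, and its TE change of -0.23 did not pass (adjusted p = 0.239). Within the libraries with Y-linked counts, 4 members of the list fell and 0 rose (1.56% and 1.22% of all genes there), with a median of -0.33.

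**Figure D2:**
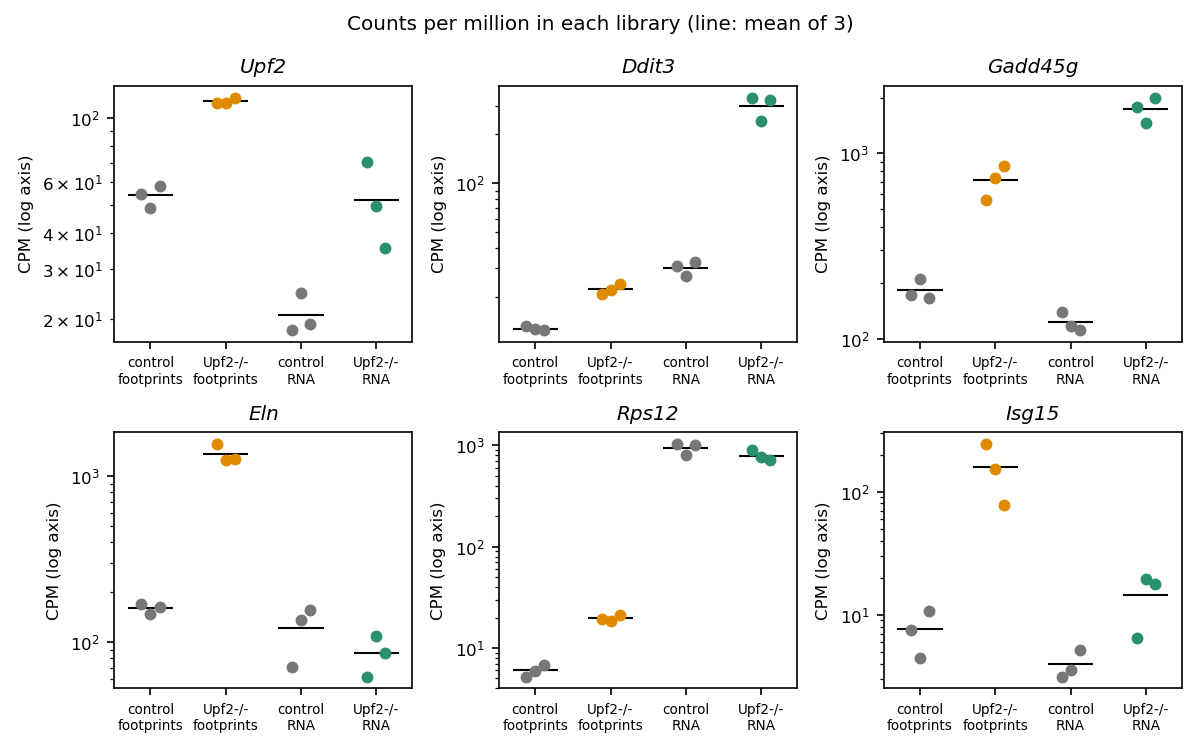
CPM of 6 genes in each of the 12 libraries (log axis, TMM-scaled within each assay), with a line at the mean of 3. Upf2 is higher in both assays where labelled Upf2-/-, Ddit3 and Gadd45g rise more in RNA than in footprints, and Eln, Rps12 and Isg15 rise mainly in footprints.

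Most NMD factors passed as higher in RPFs. Of 17 factors, RPFs rose for 12 and RNA for 8 (22.3% and 14.8% of all genes), with 0 lower in either, and the medians were 0.46 and 0.48. In TE 0 rose, 1 fell and 16 did not pass (7.6% and 10.4% of all genes rose and fell). Smg1, the kinase that phosphorylates UPF1, rose by 1.45 in RPFs and 1.21 in RNA, and its TE change was 0.23 ± 0.21 (adjusted p = 0.484). Smg9, a partner of that kinase, rose by 1.71 and 1.86 with a TE change of -0.17 ± 0.16, and the helicase gene Upf1 by 1.14 and 0.97 with a TE change of 0.16 ± 0.12. The exception was Smg5, with RNA of 392, 421 and 485 CPM against 162, 146 and 158 CPM and a TE change of -0.61 ± 0.14 (adjusted p = 0.00782). Of 9 exon junction complex genes 1 rose in TE, the core subunit gene Magoh at 0.78 ± 0.23, a share near that of all genes.

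Stress genes with upstream open reading frames were called in both directions in TE. Of 21 genes, 2 rose and 2 fell (median 0.01), near the 7.6% and 10.4% of all genes, while RPFs rose for 10 and fell for 3 (22.3% and 21.1%). The 2 that fell were Ddit3 and Ppp1r15a. Those that rose were Eprs, a tRNA synthetase, at 0.85 ± 0.17, and Atf5 at 0.55 ± 0.16, which was called in 4 of 12 fits without 1 library.

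Most splicing regulators with poison exons passed as higher in RPFs, and their TE depended on which RNA was counted. Of 45 regulators, RPFs rose for 33 and fell for 0 (22.3% and 21.1% of all genes), with a median of 0.41, and TE rose for 9 and fell for 1 (7.6% and 10.4% of all genes), with a median of 0.24. With RNA of protein_coding transcripts alone, TE rose for 20 and fell for 0 (7.09% and 9.33% of all genes), with a median of 0.46. Srsf3, a serine and arginine rich splicing factor, had 56.1%, 43.7% and 58.8% of its RNA counts in transcripts annotated as NMD or retained intron in the libraries labelled Upf2-/-, and 9.74%, 12.3% and 10.2% in control RNA. These shares did not overlap. Its TE change was 0.37 ± 0.17 (adjusted p = 0.147) with all RNA and 1.26 ± 0.24 (adjusted p = 0.00439) with protein_coding RNA. Tra2b moved from 0.16 to 0.97, Hnrnpdl from 0.00 to 0.98, U2af1 from 0.24 to 1.15 and Tra2a from 0.11 to 0.72, each called only with protein_coding RNA. Luc7l, the 1 regulator that fell, moved from -0.65 ± 0.12 to -0.04 ± 0.13. In the libraries with Y-linked counts 5 regulators rose and 0 fell with all RNA (1.22% and 1.56% of all genes there). Some regulators rose under both counts, among them Hnrnpd at 0.92, Hnrnpm at 0.87 and Hnrnpu at 0.83 with all RNA.

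**Figure D3:**
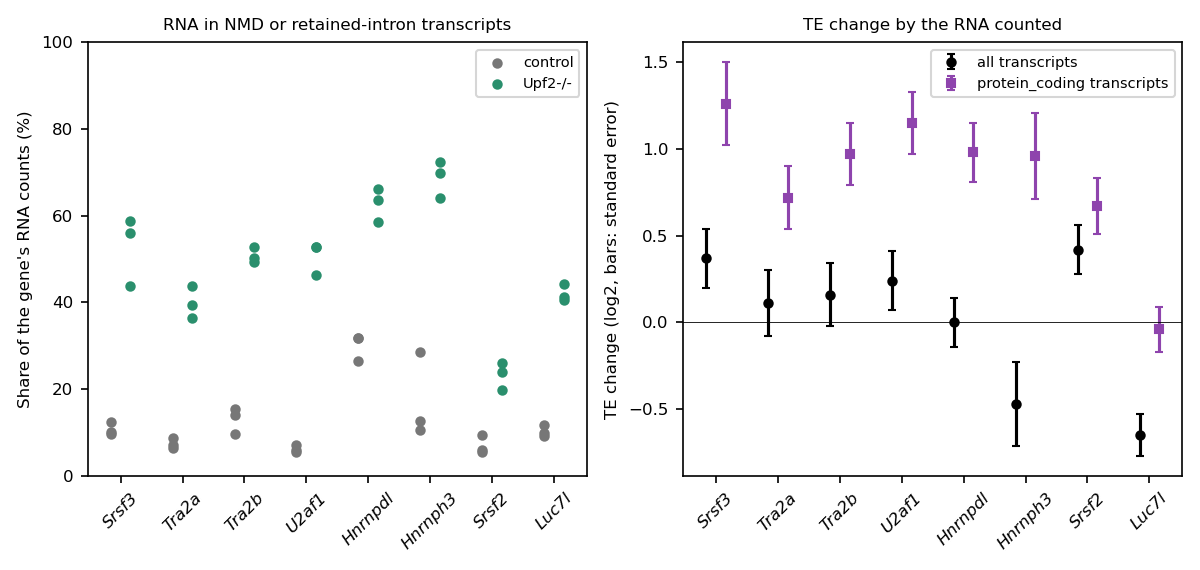
Left, share of each gene's RNA counts in transcripts annotated as NMD or retained intron (percent, 1 point per RNA library). Right, TE change (log2, bars are standard errors) with RNA of all transcripts and of protein_coding transcripts alone. The 8 genes were picked for display from the list of 45 splicing regulators and do not stand for the list. Their shares are higher in every library labelled Upf2-/-, and each TE change is higher with protein_coding RNA, Srsf3 moving from 0.37 to 1.26. Where the share rises, leaving such transcripts out raises TE by construction.

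Genes were then grouped by the change of that share, and leaving such transcripts out raises TE by construction where the share rose. For 155 genes whose share of RNA in such transcripts rose by over 20 percentage points, the median TE change was -0.30 with all RNA (3 higher, 41 lower) and 0.33 with protein_coding RNA (20 higher, 4 lower). For 357 genes with a rise of 10 to 20 points the medians were -0.21 and 0.05. For 11760 genes that moved by at most 5 points they were -0.02 and -0.03, and for 346 genes whose share fell by over 5 points 0.00 and -0.22. Over the 13156 genes tested both ways, 2051 were called in the same direction, 0 in opposite directions, 337 only with all RNA and 111 only with protein_coding RNA.

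Most DNA replication and cell cycle genes, ribosome biogenesis genes and targets of ATF4 passed as higher in RPFs, and fewer did in RNA. Of 58 replication and cell cycle genes, TE rose for 33 and fell for 0 (7.6% and 10.4% of all genes), with a median of 0.58. Their RPFs rose for 52 and fell for 2 (22.3% and 21.1% of all genes), while RNA rose for 4 and fell for 2 (14.8% and 8.57%), with medians of 0.56 and -0.02. Ccnb1, the mitotic cyclin B1, had RPFs of 19.4, 21.4 and 16.7 CPM against 9.3, 10.3 and 10.4 CPM and RNA of 55.7, 77.7 and 48.7 CPM against 70.1, 71 and 70.5 CPM. RPFs did not overlap and RNA did, and TE rose by 1.16 ± 0.22 (adjusted p = 0.00319). Ccna2 rose by 1.02 ± 0.20, the DNA ligase gene Lig1 by 0.92 ± 0.18 and the replicative helicase subunit gene Mcm5 by 0.90 ± 0.18. Of the 33 genes, 17 were called in every fit without 1 library. In the libraries with Y-linked counts 4 of these genes rose (1.22% of all genes there), and the median was 0.52.

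Of 63 ribosome biogenesis genes, TE rose for 19 and fell for 1 (7.6% and 10.4% of all genes), with a median of 0.32. RPFs rose for 44 and fell for 1 (22.3% and 21.1%), and RNA rose for 10 and fell for 5 (14.8% and 8.57%). The rRNA methyltransferase gene Fbl rose by 1.22 ± 0.17 (adjusted p = 0.000633), the UTP complex gene Mphosph10 by 1.06 ± 0.26, the helicase gene Ddx21 by 0.84 ± 0.18 and Tcof1, which supports rRNA transcription, by 0.73 ± 0.16. Of 48 ATF4 targets, TE rose for 16 and fell for 4, with a median of 0.34. RPFs rose for 31 and fell for 1, and RNA rose for 11 and fell for 3. Mthfd1l, of mitochondrial one-carbon metabolism, had RPFs of 135, 131 and 121 CPM against 52.3, 50.2 and 60 CPM, with overlapping RNA, and its TE rose by 1.33 ± 0.18 (adjusted p = 0.000422). The cystine transporter gene Slc7a11 rose by 1.28 ± 0.27 and the proline synthesis gene Pycr1 by 0.84 ± 0.19. Among the libraries with Y-linked counts 3 biogenesis genes and 5 ATF4 targets rose, with 0 lower (1.22% and 1.56% of all genes there).

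**Figure D4:**
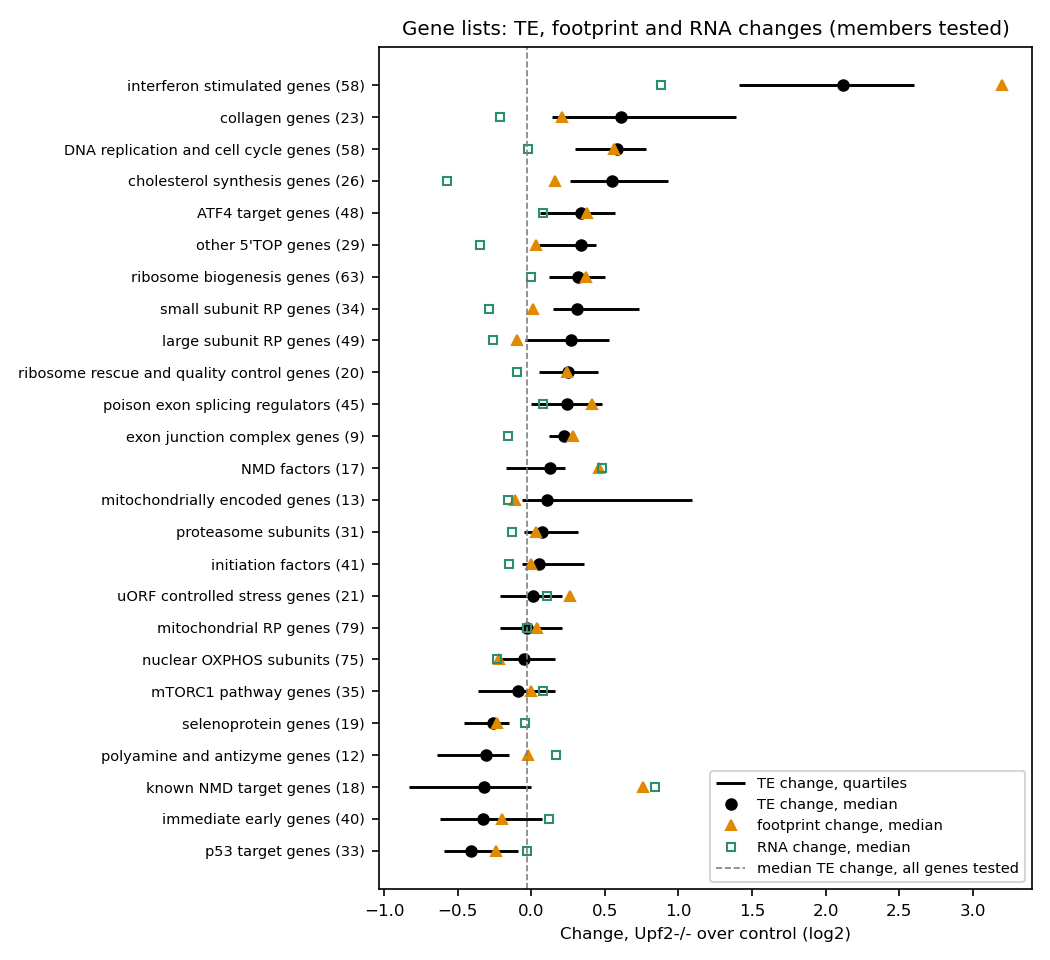
Median TE change of each gene list with its quartiles (black), beside the median RPF change (triangles) and the median RNA change (open squares), all log2, libraries labelled Upf2-/- over control. The number of members tested is in parentheses and the dashed line is the median TE change of all tested genes, -0.03. Interferon stimulated genes lie farthest to the right at 2.12 and p53 targets farthest to the left at -0.41.

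Eln had the largest TE increase among genes called in every fit without 1 library at a mean of at least 5 CPM in both assays. Eln (chromosome 5, 134702593 to 134747323, - strand), the gene of the elastic fibre protein elastin, had RPFs of 1560, 1250 and 1270 CPM in the libraries labelled Upf2-/- and 170, 147 and 164 CPM in controls. Its RNA was 62, 109 and 85.6 CPM against 70.6, 136 and 157 CPM. RPFs were far apart between groups and RNA overlapped. TE rose by 3.59 ± 0.32 (adjusted p = 1.93e-05), and by 3.92 among the libraries with Y-linked counts. Of 23 collagen genes, TE rose for 13 and fell for 1 (7.6% and 10.4% of all genes), with a median of 0.61. RPFs rose for 12 and fell for 6 (22.3% and 21.1%), and RNA rose for 0 and fell for 5 (14.8% and 8.57%). Col3a1, of fibrillar type III collagen, had RPFs of 2740, 2380 and 2310 CPM against 898, 837 and 973 CPM, with overlapping RNA, and rose by 1.63 ± 0.23 (adjusted p = 0.000609). Col8a2 rose by 1.80 ± 0.21, Col5a3 by 1.53 ± 0.33 and Col15a1 by 1.48 ± 0.27. Within the libraries with Y-linked counts 9 collagen genes rose and 0 fell (1.22% and 1.56% of all genes there), with a median of 0.77. Secreted regulators were among the 8 largest increases as well, with the growth factor binding gene Igfbp3 at 2.16 ± 0.22 and the Wnt modulator gene Sfrp2 at 2.38 ± 0.51. Of 10 fibroblast markers 6 rose in TE and 0 fell. These markers include the collagen genes Col1a1, Col1a2 and Col3a1, so this count is not separate from that of collagens. RPFs of cartilage markers summed to 302 to 495 CPM against 529 to 698 CPM. Of these, Col2a1 was at -1.01 on the log2 scale and the other 4 tested markers were above 0, of which Acan passed at 0.78. The part of cell composition in these changes was not tested, and in bulk samples fewer cells of a type and less RNA per cell cannot be told apart.

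Among cholesterol synthesis genes, 13 of 26 passed as higher in TE and 16 as lower in RNA (7.6% and 8.57% of all genes). None fell in TE and none rose in RNA, with medians of 0.55 and -0.57, and RPFs rose for 7 and fell for 5, near the 22.3% and 21.1% of all genes. Hmgcs1, HMG-CoA synthase, had RPFs of 311, 277 and 238 CPM against 296, 242 and 319 CPM and RNA of 39.5, 40.2 and 33 CPM against 76.3, 111 and 100 CPM. RPFs overlapped, RNA was lower in every library labelled Upf2-/-, and TE rose by 1.29 ± 0.20 (adjusted p = 0.00121). Acat2 rose by 1.11 ± 0.18, Nsdhl by 0.98 ± 0.18 and Sqle, squalene epoxidase, by 0.93 ± 0.19. Among the libraries with Y-linked counts 4 rose (1.22% of all genes there), and the median was 0.59.

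Interferon stimulated genes had the largest list median. Of 58 tested of 61, TE rose for 43 and fell for 0 (7.6% and 10.4% of all genes), with a median of 2.12. RPFs rose for 54 and RNA for 32 (22.3% and 14.8% of all genes), with 0 lower in either and medians of 3.20 and 0.88. Their summed RPFs were 4620, 3560 and 2110 CPM in the libraries labelled Upf2-/- and 1440, 1310 and 1530 CPM in controls, and their summed RNA was 606, 876 and 832 CPM against 581, 651 and 741 CPM. The RPF sums varied widely among the 3 libraries labelled Upf2-/- and did not overlap with controls, while the RNA sums overlapped. Isg15, a ubiquitin-like protein, had RPFs of 243, 154 and 78.5 CPM against 7.54, 4.46 and 10.8 CPM and RNA of 6.43, 19.6 and 17.6 CPM against 3.13, 3.58 and 5.12 CPM. No library overlapped, and TE rose by 2.55 ± 0.59 (adjusted p = 0.00911). The RNA sensor gene Ifih1 rose by 2.52 ± 0.43, Slfn5 by 4.35 ± 0.62, the ubiquitin ligase gene Rnf213 by 2.65 ± 0.44 and the chemokine gene Cxcl10 by 2.43 ± 0.47. Of the 43 genes, 25 were called in every fit without 1 library. Among the libraries with Y-linked counts 1 of 59 rose (1.22% of all genes there), at a median of 1.99, and the 20 genes with at least 5 CPM in each assay had a median of 1.44. Summed macrophage markers were 166 to 202 CPM in RPFs against 122 to 164 CPM in controls, and their part in this result was not tested.

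Among p53 targets and immediate early genes, more members fell than rose in TE, and most did not pass. Of 33 p53 targets, TE rose for 1 and fell for 10 (7.6% and 10.4% of all genes), with a median of -0.41, and RPFs rose for 3 and fell for 17 (22.3% and 21.1%). Pmaip1, the proapoptotic gene of NOXA, had RPFs of 21.8, 34.6 and 26.8 CPM against 74, 95.7 and 66.9 CPM and RNA of 107, 52.6 and 60.3 CPM against 73.1, 67.3 and 50.9 CPM. RPFs did not overlap and RNA did, and TE fell by 1.71 ± 0.35 (adjusted p = 0.00488). The death domain gene Pidd1 changed by -1.49 ± 0.22, and by -0.90 with protein_coding RNA. Tnfrsf10b, a death receptor gene, changed by -0.79 ± 0.13 and the cell cycle inhibitor gene Cdkn1a by -0.49 ± 0.16, while Trp53 itself was at 0.09 ± 0.14. Of 40 immediate early genes, TE rose for 1 and fell for 14, with a median of -0.33. Ier3 changed by -1.17 ± 0.19 and the phosphatase genes Dusp1 and Dusp6 by -1.01 ± 0.18 and -0.82 ± 0.16. The 1 that rose was Klf10 at 1.56 ± 0.30, whose RNA of 4880 to 15900 CPM stood beside RPFs of 75.8 to 129 CPM. Among the libraries with Y-linked counts 2 p53 targets and 7 immediate early genes fell and 0 rose (1.56% and 1.22% of all genes there).

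Smaller lists held few calls, beside 7.6% of all genes higher and 10.4% lower. Of 19 selenoprotein genes 0 rose and 3 fell (median -0.26), with Gpx4, the lipid peroxide reductase, at -1.03 ± 0.23. Of 12 polyamine and antizyme genes 0 rose and 3 fell (median -0.31), and these were the antizyme inhibitor gene Azin2 at -1.73 ± 0.29, the spermine oxidase gene Smox at -1.20 ± 0.20 and the antizyme gene Oaz2 at -0.63 ± 0.17. Of 31 proteasome subunits 2 rose and 1 fell (median 0.07), and of 20 ribosome rescue and quality control genes 3 rose and 0 fell (median 0.25). With only the libraries that have Y-linked counts, 1 polyamine or antizyme gene fell (1.56% of all genes there) and 0 genes of the other 3 lists were called.

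The 8 largest decreases among genes called in every fit were, besides Ddit3, genes with mean RPFs under 5 CPM in the libraries labelled Upf2-/-. These passed the minimum of 5 CPM through the control libraries, so the size of their fall is uncertain. Krt20, an epithelial keratin, had RPFs of 1.84, 0.89 and 2.33 CPM against 27.5, 32.8 and 23 CPM and RNA of 10.5, 5.43 and 10.5 CPM against 24.5, 19 and 15.7 CPM. Both were lower without overlap, and TE fell by 2.98 ± 0.45 on the log2 scale (adjusted p = 0.000936). The endothelial gene Emcn was at -2.73 ± 0.39, Gpr149 at -2.70 ± 0.42, the mast cell and basophil protease gene Mcpt8 at -2.64 ± 0.29, Mogat2 at -2.56 ± 0.44, Stmn4 at -2.55 ± 0.47 and Arhgap36 at -2.50 ± 0.40. RPFs of endothelial markers, which include Emcn and so are not separate from its fall, summed to 54.3 to 62.8 CPM against 78.9 to 103 CPM. Cdh5, Cldn5 and Tie1 were under 1 CPM in all groups. Those of epithelial markers summed to 20.1 to 25.1 CPM against 39.7 to 54.2 CPM, with Epcam and Cdh1 under 1 CPM. Of 4 endothelial markers tested in RPFs 1 rose and 2 fell, and of 2 epithelial markers 0 rose and 1 fell. These counts stand beside 22.3% of all genes higher and 21.1% lower in RPFs. In TE, 1 of 5 endothelial markers rose and 2 fell (7.6% and 10.4% of all genes). The part of these cell types in the decreases was not tested.

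The TE change was then set beside those after loss of Pelo or Hbs1l, which act together in rescuing stalled ribosomes. The 3 contrasts share the control RNA, and same-numbered control footprint libraries agreed almost within sampling noise between pools (chi-square per gene of 1.12 to 1.19, against 4.83 to 12.6 between control replicates). The differences count the controls of both pools as separate libraries, so n is above the number of distinct samples and their p-values do not measure the spread between embryos alone. Counts with the control footprints left out, added after seeing the data, are given beside them. Against Pelo-/-, the TE change differed for 2584 of 13727 genes (18.8%), 1234 higher and 1350 lower where labelled Upf2-/-, for 3429 with the control footprints left out of the difference, and for 1505 without Pelo-/- RNA replicate 2, which leaves 1 Pelo-/- RNA library that is assumed to vary like the other groups. Of the RP genes, 21 large subunit genes were lower and 1 higher, as were 12 and 1 small subunit genes (9.83% of all genes lower), with TE medians of 0.27 and 0.31 against 1.06 and 0.93. Without control footprints 28 and 17 were lower and 1 and 1 higher (13.6% of all genes lower and 11% higher). For interferon stimulated genes 45 of 60 were lower (56 of 61 without control footprints), with TE medians of 2.12 against 5.12. Of 23 collagens 13 were higher and 0 lower (8.99% of all genes higher), or 15 and 0 without control footprints, with TE medians of 0.61 against -0.32. Known NMD targets were lower for 8 and higher for 1 of 18 in both fits, at -0.32 against 0.12, and mitochondrial RP genes lower for 27 (36 without control footprints) and higher for 0 of 79, at -0.03 against 0.34.

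Against Hbs1l-/-, whose own TE change was called for 2 of 13146 genes (0.0152%, with 2116 at an unadjusted p under 0.05; Klf10 at 1.17 and Banp at -1.02, named after their values were seen), the difference passed for 699 of 13248 genes (5.28%), 286 higher and 413 lower. Interferon stimulated genes were higher for 15 of 60, cell cycle genes for 15 of 58, ATF4 targets for 8 of 48, collagens for 7 of 23 and cholesterol synthesis genes for 6 of 26 (2.16% of all genes higher), with 0 lower in each. Known NMD targets were lower for 4 and higher for 1 of 18 (3.12% of all genes lower). Large subunit RP genes were higher for 1 of 49 and small subunit RP genes for 2 of 34, with 0 lower. Without control footprints the higher counts were 46 for interferon stimulated, 23 for cell cycle, 19 for ATF4 target, 10 for collagen (2 lower), 10 for cholesterol synthesis, 3 for large subunit and 4 for small subunit genes (5.31% of all 13440 genes higher and 4.94% lower), and known NMD targets were lower for 4 and higher for 2. The count of 699 depended on single libraries. It was 328 and 356 without footprint replicates 1 and 2 labelled Upf2-/-, 390 and 310 without replicates 1 and 2 of its control footprints, 243 without Hbs1l-/- footprint replicate 3, 318 and 325 without replicates 1 and 3 of the Hbs1l-/- control footprints, 462 and 1061 without RNA replicates 1 and 2 labelled Upf2-/- and 432 without Hbs1l-/- RNA replicate 2. It was 1378 with the control footprints left out of the difference (714 higher and 664 lower).

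**Figure D5:**
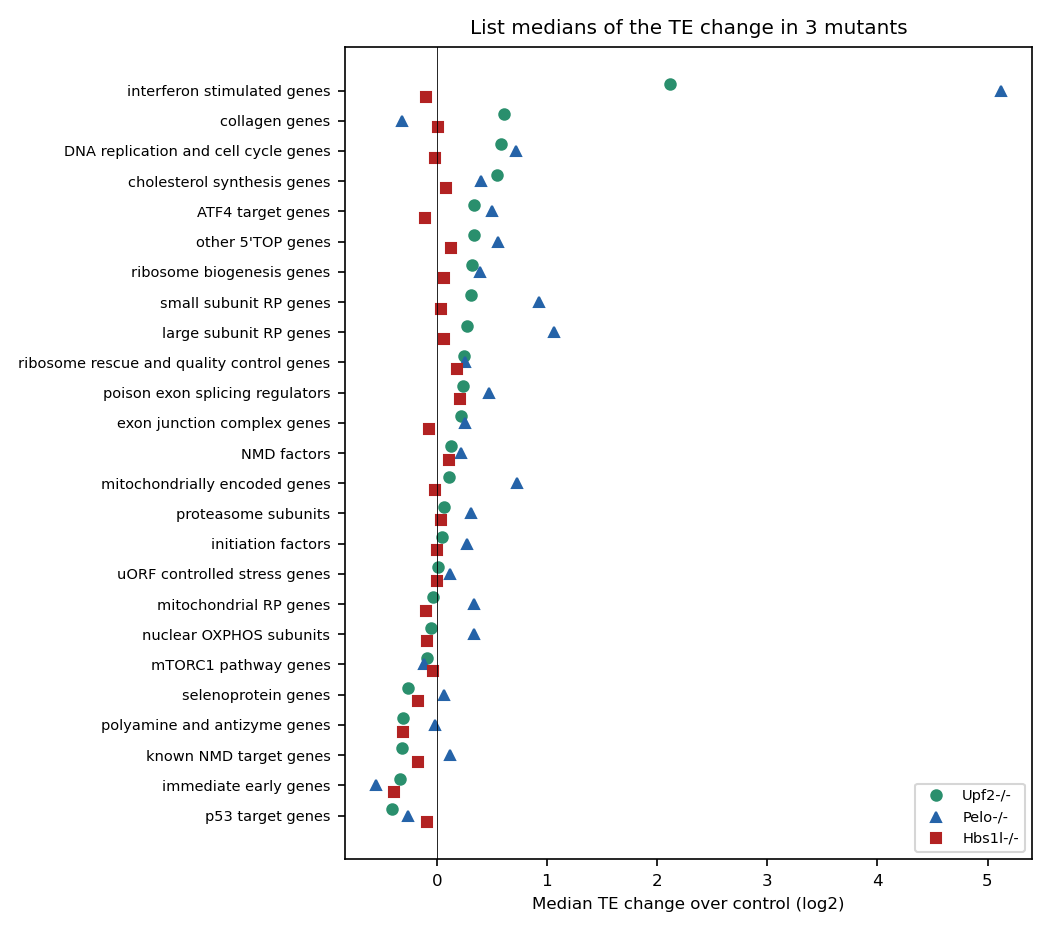
Median TE change over control (log2) of each gene list after loss of Upf2 (circles), Pelo (triangles) and Hbs1l (squares), which share controls. Interferon stimulated genes are at 2.12, 5.12 and -0.10 and collagens at 0.61, -0.32 and 0.01.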

How the data were processed

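Footprint counts per gene were deposited by the authors, who cut fragments of 15 to 34 nucleotides from a gel. Reads were aligned to mm10 with HISAT2 2.1.0 after removing non-coding RNA reads with Bowtie2 2.2.3. Those in coding sequence were counted with featureCounts on Gencode M24. The authors kept a narrower range of read lengths for further analysis, and whether the gene counts hold that range alone is not stated. RNA estimated counts and TPM per transcript were deposited by the authors from kallisto 0.42.4 on Gencode M24 transcripts of stranded, poly(A)-selected RNA. Reads mapping to near-identical copies can be lost or split between them in either step, and the assays were counted over different parts of the transcript.

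Here the transcript values of each gene were added up and rounded to whole numbers, and genes with histone prefixes were left out. Counts were fitted with edgeR 4.0.16 in R 4.3.3 (quasi-likelihood F test, TMM factors within each assay, filterByExpr, common biological coefficient of variation of 0.123 in the TE fit). The TE change was the interaction of assay and genotype. It is the genotype effect on RPFs minus that on RNA. Differences from Pelo-/- and Hbs1l-/- cells were tested as contrasts in fits of their own. P-values are two-sided and Benjamini-Hochberg adjusted over all tested genes, with 0.05 as the threshold. On counts simulated for the TE comparison over 13158 genes, 79% of changes of 1 and 98% of changes of 2 (log2) were recovered, with 5.35% of calls false. The simulation changed 100 genes of each size, in the footprints labelled Upf2-/- alone, far fewer than were called in the data. They were drawn from genes above a minimum expected footprint count, so recovery among genes with few RPFs was not measured. Within each assay, replicates of the TE comparison were separate embryos, so its p-values cover the spread between them at these depths. The fit treats footprint and RNA libraries as independent, although some may come from the same embryo. It also does not adjust for sex, which was uneven between groups. The TE change used the control footprint libraries of the Upf2 pool alone, and the differences those of both pools, which agreed almost within sampling noise by number.

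Members and gene lists were chosen with earlier results of these data known. Genes were named as up to 4 called members per list by adjusted p, those with a known role in NMD or TOP translation, the 8 largest increases and decreases called in every fit without 1 library at a mean of at least 5 CPM in both assays, and 4 differences per direction from each other mutant. Gene positions are from Gencode M21 on mm10. Alternatives were DESeq2 1.42.0, RLE factors, looser and stricter filters, other RNA summaries, summed control pools, a replicate block and leaving out each library. The exon counts of RNA with which the authors computed TE were not analysed here, nor were the footprints of embryos and cerebellum.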

Additional observations from a re-analysis of the deposited data

Results flagged for a closer look

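Results in which the TE change of the cells labelled Upf2-/- differed from that of another mutant by a direct test of the difference (edgeR quasi-likelihood test, Benjamini-Hochberg adjustment) are given here as values. The contrasts share controls, and the fits count the near-identical control footprints of both pools as separate libraries. Against Pelo-/- cells 2584 genes differed (3429 with control footprints left out), and 4 genes stood lowest and 4 highest by the naming rule. The chemokine genes Ccl7 and Ccl2 differed by -4.19 ± 0.31 and -3.99 ± 0.37 on the log2 scale, with TE changes of 0.29 and 0.93 after Upf2 loss beside 4.51 and 4.94 after Pelo loss. Isg15 differed by -4.15 ± 0.84 (2.55 beside 6.73), and Rpl27a, a large subunit RP gene with near-identical copies, by -3.87 ± 0.35 (0.80 beside 4.68). In the other direction the cartilage collagen gene Col2a1 differed by 2.86 ± 0.52 (-0.61 beside -3.45), Eln by 2.73 ± 0.60 (3.59 beside 0.88), the VEGF receptor gene Kdr by 2.61 ± 0.27 (0.40 beside -2.19) and the sarcomere gene Myom1 by 2.35 ± 0.39 (-0.48 beside -2.81). The adjusted p of these 8 ranged from 3.02e-07 (Ccl7) to 0.0043 (Eln).

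Against Hbs1l-/- cells 699 genes differed, 243 to 1061 where 1 library was left out and 1378 with control footprints left out. Without control footprints all 16 named differences were called in the same direction. The next 4 genes had mean RPFs under 5 CPM where labelled Upf2-/- and passed the minimum through other libraries, so the size of their difference is uncertain. Krt20 differed by -3.23 ± 0.62, Emcn by -2.82 ± 0.60, Gpr149 by -2.74 ± 0.45 and Mcpt8 by -2.61 ± 0.42, and their TE changes after Hbs1l loss were 0.25, 0.09, 0.03 and -0.05. Higher after Upf2 loss were Eln by 3.76 ± 0.52, the matrix proteoglycan gene Prelp by 3.45 ± 0.82, Sfrp2 by 2.88 ± 0.68 and Isg15 by 2.85 ± 0.81, beside TE changes after Hbs1l loss of -0.19, -0.46, -0.53 and -0.32. The adjusted p of these 8 ranged from 0.00134 (Eln) to 0.0453 (Isg15).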

How the results depend on the processing

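The number of genes with altered TE was 2392 and fell to 376 where only libraries with Y-linked counts were kept, a comparison of 7 libraries added after seeing the data. Leaving out 1 library at a time gave 1375 to 2778 genes for TE, 4174 to 5136 for RPFs, 1998 to 3466 for RNA, 1505 to 3217 for the difference from Pelo-/- and 243 to 1061 for that from Hbs1l-/- cells. DESeq2 gave 2627, 4567, 3582, 2791 and 969. The difference from Hbs1l-/- cells rose from 699 to 1345 genes with a replicate block and to 1378 with control footprints left out, where 51.8% of calls were higher against 40.9%. Why these counts moved was not tested. The other alternatives kept all 5 counts within 1.5 times. Of the calls in RNA, 63.4% were higher, and 73.6% without RNA replicate 2 labelled Upf2-/-. The replicate block gave 2432 genes for TE, 4580 for RPFs, 3532 for RNA and 3269 for the difference from Pelo-/- cells. Replicate numbers did not pair the assays as a whole. Same-numbered footprint and RNA libraries correlated at -0.08, 0.054 and 0.206 where labelled Upf2-/- and at 0.096, -0.089 and 0.481 in controls. Differently numbered pairs within a genotype ran from -0.381 (control footprint replicate 3 with RNA replicate 1) to 0.361 (replicate 2 with 1). Which footprint and RNA libraries came from the same embryo is not known. The TE change of Upf2, -0.25 with no call, was -0.47 to 0.05 where 1 library was left out and turned sign without RNA replicate 1 labelled Upf2-/-. It was -0.57 with length-scaled RNA and -0.66 with only the libraries that have Y-linked counts. Over 105 named genes, the alternatives other than leaving out 1 library lost no call in 1068 instances and lost the call in 82. Most of the 82 were with only the libraries that have Y-linked counts. Gained calls, such as that of Srsf3 with protein_coding RNA, were not counted separately. Without 1 library no call was lost in 1111 instances, the call was lost in 148 and the direction turned in 1. Low footprint counts limit RP genes and genes with few RPFs, and 3 replicates per group, or 2 of Pelo-/- RNA, limit the tests.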
